A study of Mus musculus with 14 samples.

Results

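The genes of fatty acid uptake and oxidation were followed in the mouse left ventricle as a set of 33 genes listed by their known role, from uptake to electron transfer. Of the 33, 31 had a probe set annotated to that gene alone, out of 18193 genes so represented on the array, and all 31 passed a filter on low signal. The muscle carnitine palmitoyltransferase Cpt1b was matched by a probe set shared with other genes, and no probe set was annotated to the acyl-CoA synthetase Acsl1, so neither was analysed here. RNA from the left ventricle of male C57BL/6 mice had been hybridised to 14 Affymetrix Mouse430_2 arrays. There were 4 arrays of Hsp22 knockout hearts (KO) and 4 of wild-type hearts (WT) taken 3 days after transverse aortic constriction (TAC), and 3 arrays of KO hearts and 3 of WT hearts in the basal state. Hsp22 is a small heat shock protein encoded by Hspb8, and TAC is a surgical narrowing of the aortic arch that loads the left ventricle with pressure. No sham-operated group was among the samples, and neither the age of the mice nor the part of Hspb8 removed was stated in the labels. The labels do not tie each array to its own animal, so the p-values measure the spread between these samples, which may be technical.

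The adult heart draws most of its energy from long-chain fatty acids. Lipoprotein lipase frees them from circulating triglyceride, CD36 and fatty acid transport proteins carry them across the plasma membrane, and a binding protein moves them through the cytosol. After coupling to coenzyme A they cross the mitochondrial membranes as carnitine esters, a step that malonyl-CoA inhibits, and each turn of the oxidation spiral then shortens the chain through a dehydrogenase, a hydratase, a second dehydrogenase and a thiolase. A fall in the expression of these genes is a known feature of hearts under sustained pressure load, and many of them are targets of the nuclear receptor PPAR-alpha.

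Values are log2 RMA expression values, an array signal on a doubling scale, and differences are TAC minus basal or KO minus WT. The targeted gene separated the genotypes on its main probe sets. On 1417013_at, Hspb8 lay between 4.27 and 5.02 in TAC KO hearts, against 11.09 to 12.29 in TAC WT hearts, and between 4.40 and 5.13 in basal KO hearts, against 11.29 to 11.99 in basal WT hearts. On 1417014_at the KO minus WT difference was -5.29 (log2) after TAC and -5.48 in basal hearts, whereas the third probe set, 1456434_x_at, did not pass (log2 -0.60 after TAC and -1.08 in basal hearts, limma adjusted p = 0.258 and 0.172). All 14 arrays carried ventricular muscle RNA: Myl2, the ventricular myosin light chain, was at 14.40 or above on every array, and the fast skeletal myosin Myh4 stayed at or below 4.83. The atrial gene Sln varied widely, from 4.27 on a TAC WT array to 12.60 on a basal KO array. By the names of the array files, basal and TAC hearts were hybridised in separate runs, so run and surgery cannot be told apart in any difference between TAC and basal hearts. Genotypes were compared within a run, except that the day of basal KO 3 differed from that of the remaining basal arrays. The array TAC WT 3 stood apart: correlations between TAC WT arrays went as low as 0.918, against at least 0.970 in TAC KO hearts and at least 0.983 in both basal groups.

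At 3 days after TAC, fatty acid genes were lower in both genotypes and none was higher (Benjamini-Hochberg adjusted p under 0.05 in limma). In KO hearts 20 of 31 were lower, where 21.8% of all 12260 genes tested were lower and 22.7% higher (44.5% in either direction). In WT hearts 18 of 31 were lower, where 23.8% of all genes were lower and 26.9% higher (50.7% in either direction). The fatty acid genes were chosen with earlier results of these data known, so the comparison with all genes is a description. The median log2 difference over the 31 genes was -0.67 in KO hearts and -0.62 in WT hearts, beside medians over all genes of -0.016 in KO and 0.018 in WT hearts. By direction alone, 29 of 31 were below 0 in KO hearts and 31 of 31 in WT hearts. The same 17 genes were lower in both genotypes. Ech1 passed in WT hearts alone, and Acot1, Acot13 and Etfdh in KO hearts alone, and for none of these 4 did the difference between the genotypes' TAC effects itself pass. A further 10 passed in neither: Lpl, Cd36, Fabp3, Cpt1a, Slc25a20, Acadl, Acadm, Eci2, Decr1 and Etfa.

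**Figure D1:**
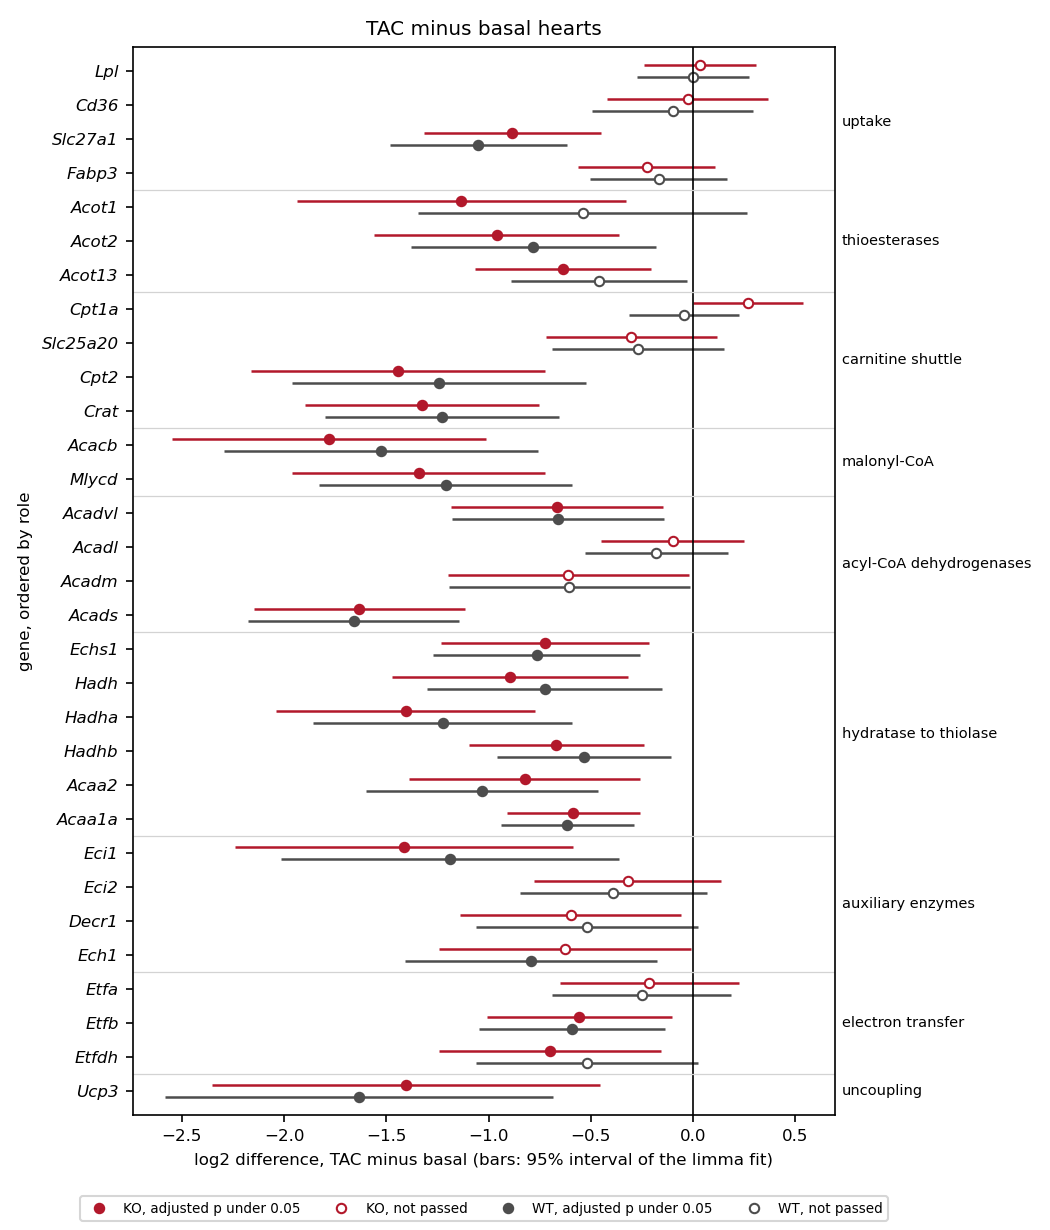
Log2 difference between TAC and basal hearts for the 31 fatty acid genes, ordered by role from uptake (top) to uncoupling (bottom), with KO (red) above WT (grey). Bars are 95% intervals of the limma fit and filled points passed at an adjusted p under 0.05. Filled points lie left of 0 in both genotypes, while Lpl, Cd36, Fabp3 and Acadl lie close to 0.

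The number that passed depended on single arrays. In KO hearts it was 12 without basal KO 3, 13 without basal KO 1 and at most 23. In WT hearts it was 10 without basal WT 1, 11 without basal WT 3, 11 without TAC WT 4 and 24 without TAC WT 1, and it was 11 in a fit on the WT arrays alone. Centring each array on its median left 19 in KO hearts and 12 in WT hearts, and quantile normalization gave 21 and 19, with the median over all WT genes moved by quantile scaling to -0.10. The share of higher genes among all WT calls was 53.1%, beside 41.1% under quantile scaling and 63.1% when arrays were median-centred. No passing difference of these genes changed sign under any of the 26 alternatives. The 8 genes lower in both genotypes under every alternative were Slc27a1, Cpt2, Crat, Acacb, Mlycd, Acads, Hadha and Acaa1a, except that Acaa1a was not tested in the alternative without probe sets of the _x_at and _s_at classes. These are also the 8 genes with the smallest p, and their values on every array follow under their roles.

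Of the 4 uptake genes, the membrane transporter passed on its brightest probe set and the others did not. Slc27a1, a fatty acid transport protein of the plasma membrane with acyl-CoA synthetase activity, had values of 8.87, 8.49, 8.59 and 8.34 in TAC KO hearts, against 9.34, 9.49 and 9.54 in basal KO hearts. Its values in TAC WT hearts were 9.33, 8.91, 8.36 and 8.40, against 9.76, 9.79 and 9.85 in basal WT hearts. No TAC array reached a basal array of its own genotype, and the log2 difference was -0.88 ± 0.20 in KO hearts (SE, limma adjusted p = 0.00417) and -1.05 ± 0.20 in WT hearts (adjusted p = 0.00128). The dimmer Slc27a1 probe set 1435658_at did not pass in KO hearts (log2 -0.575, adjusted p = 0.114). On it, TAC and basal arrays overlapped in both genotypes. Lpl, which releases fatty acids from triglyceride in the capillary, gave log2 differences of 0.034 in KO and -0.00083 in WT hearts, with 95% intervals of -0.24 to 0.31 and -0.28 to 0.27. Cd36, the main fatty acid translocase of the cardiomyocyte, gave -0.027 (-0.42 to 0.37) in KO and -0.10 (-0.49 to 0.29) in WT hearts. Fabp3, the heart-type binding protein of the cytosol, gave -0.23 (-0.56 to 0.11) in KO and -0.17 (-0.50 to 0.17) in WT hearts. Lpl, Cd36 and Fabp3 read 12.31 or more on every array of a table whose highest value was 14.81. Their dimmer probe sets did not pass either, but some lay lower: Lpl 1431056_a_at gave -0.34 in KO and -0.46 in WT hearts (adjusted p = 0.250 and 0.116), outside the intervals of the brighter one. Cd36 1450884_at gave -0.60 in KO and -0.25 in WT hearts (adjusted p = 0.0893 and 0.465), and Fabp3 1444844_at gave -0.31 in KO and -0.26 in WT hearts. Another Cd36 probe set, 1450883_a_at, lay above 0 in KO hearts (log2 0.14, adjusted p = 0.357).

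The thioesterases release fatty acids from coenzyme A, in mitochondria (Acot2, Acot13) or the cytosol (Acot1). Acot2 was lower in both genotypes on its brightest probe set, with a log2 difference of -0.96 in KO and -0.78 in WT hearts (adjusted p = 0.0143 and 0.0317). Its dimmer probe set 1422996_at did not pass in KO hearts (log2 -0.74, adjusted p = 0.0665). Acot13 was lower by 0.64 (log2) in KO hearts (adjusted p = 0.0214), and its WT value of -0.46 did not pass (adjusted p = 0.0694). Acot1 had low signal: it passed the filter through 3 arrays, its mean in TAC KO hearts was 4.75 and in basal KO hearts 5.88, near or under the filter value of 5.75, and its fitted difference of -1.13 in KO hearts (95% interval -1.94 to -0.33, adjusted p = 0.0258) rests on dim signal. In WT hearts Acot1 gave -0.54, with 1 array, TAC WT 1, above all basal arrays. Acot1 and Acot2 are close paralogs, and probes for either may bind both transcripts. The WT call of Acot2 was lost without any single basal WT array or TAC WT 4 (adjusted p up to 0.102), and the KO calls of Acot13 and Acot1 were lost without 1 of the basal KO arrays (Acot13 any of them, adjusted p up to 0.0614, and Acot1 basal KO 1 or 3, or TAC KO 2 or 4, adjusted p up to 0.101).

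In the carnitine shuttle, Cpt2 and Crat were lower, and Cpt1a, the one isoform of the entry enzyme measured here, was not. Cpt2, which returns acyl groups from carnitine to coenzyme A inside the mitochondrion, had values of 11.17, 10.89, 10.84 and 10.52 in TAC KO hearts, against 12.16, 12.33 and 12.40 in basal KO hearts. In TAC WT hearts Cpt2 read 11.99, 11.71, 10.25 and 10.63, against 12.47, 12.12 and 12.57 in basal WT hearts. The KO arrays were close together and the WT arrays fell into a higher and a lower pair, all below the basal range, and the difference was -1.44 ± 0.33 in KO hearts (adjusted p = 0.00468) and -1.24 ± 0.33 in WT hearts (adjusted p = 0.00841). Crat, which exchanges short acyl groups between carnitine and coenzyme A, read 10.05, 9.83, 9.84 and 9.61 in TAC KO hearts, against 11.19, 11.02 and 11.27 in basal KO hearts. Its TAC WT values were 10.65, 10.45, 9.19 and 9.75, against 11.26, 11.10 and 11.36 in basal WT hearts. On this probe set, its brightest, Crat was thus 2.51-fold lower in KO hearts (adjusted p = 0.00210) and 2.35-fold lower in WT hearts (adjusted p = 0.00251), with no overlap between TAC and basal arrays. Its dimmer probe sets in KO hearts gave -0.515 (1441919_x_at, adjusted p = 0.0729) and -0.57 (1448544_at, adjusted p = 0.00475). The mean of its probe sets gave -0.80 in KO and -0.77 in WT hearts and passed in both. The carnitine-acylcarnitine carrier Slc25a20 gave -0.30 in KO and -0.27 in WT hearts and did not pass on its brightest probe set, whereas its dimmer probe set 1423109_s_at passed in both (-0.84 in KO, adjusted p = 0.0199, and -0.76 in WT hearts, adjusted p = 0.0273). Cpt1a, the liver-type isoform of the entry enzyme, which the heart also expresses, gave 0.27 in KO hearts (adjusted p = 0.0927) and -0.046 in WT hearts (adjusted p = 0.769). It was the only member whose TAC KO arrays all lay above the basal KO arrays. A dim Cpt1a probe set, 1434866_x_at, passed as higher in WT hearts (log2 0.40, adjusted p = 0.0198).

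The enzymes that set the level of malonyl-CoA, the inhibitor of fatty acid entry into mitochondria, were both lower. Acacb, the acetyl-CoA carboxylase that makes malonyl-CoA at the mitochondrion, read 9.71, 9.22, 9.30 and 8.77 in TAC KO hearts, against 11.08, 11.10 and 10.91 in basal KO hearts. In TAC WT hearts it read 10.39, 10.08, 8.45 and 9.19, against 10.99, 11 and 11.17 in basal WT hearts. All 8 TAC arrays were below all 6 basal arrays, and the difference was -1.78 ± 0.36 in KO hearts (adjusted p = 0.00212) and -1.53 ± 0.36 in WT hearts (adjusted p = 0.00391). Mlycd, malonyl-CoA decarboxylase, which removes malonyl-CoA, read 8.69, 8.19, 8.15 and 8.19 in TAC KO hearts, against 9.62, 9.67 and 9.65 in basal KO hearts. Its TAC WT values were 9.23, 8.99, 7.92 and 7.82, against 9.72, 9.61 and 9.77 in basal WT hearts. Mlycd too showed no overlap, and it was 2.53-fold lower in KO hearts (adjusted p = 0.00302) and 2.31-fold lower in WT hearts (adjusted p = 0.00428). The making and the removing enzyme thus shared their direction on every TAC array.

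**Figure D2:**
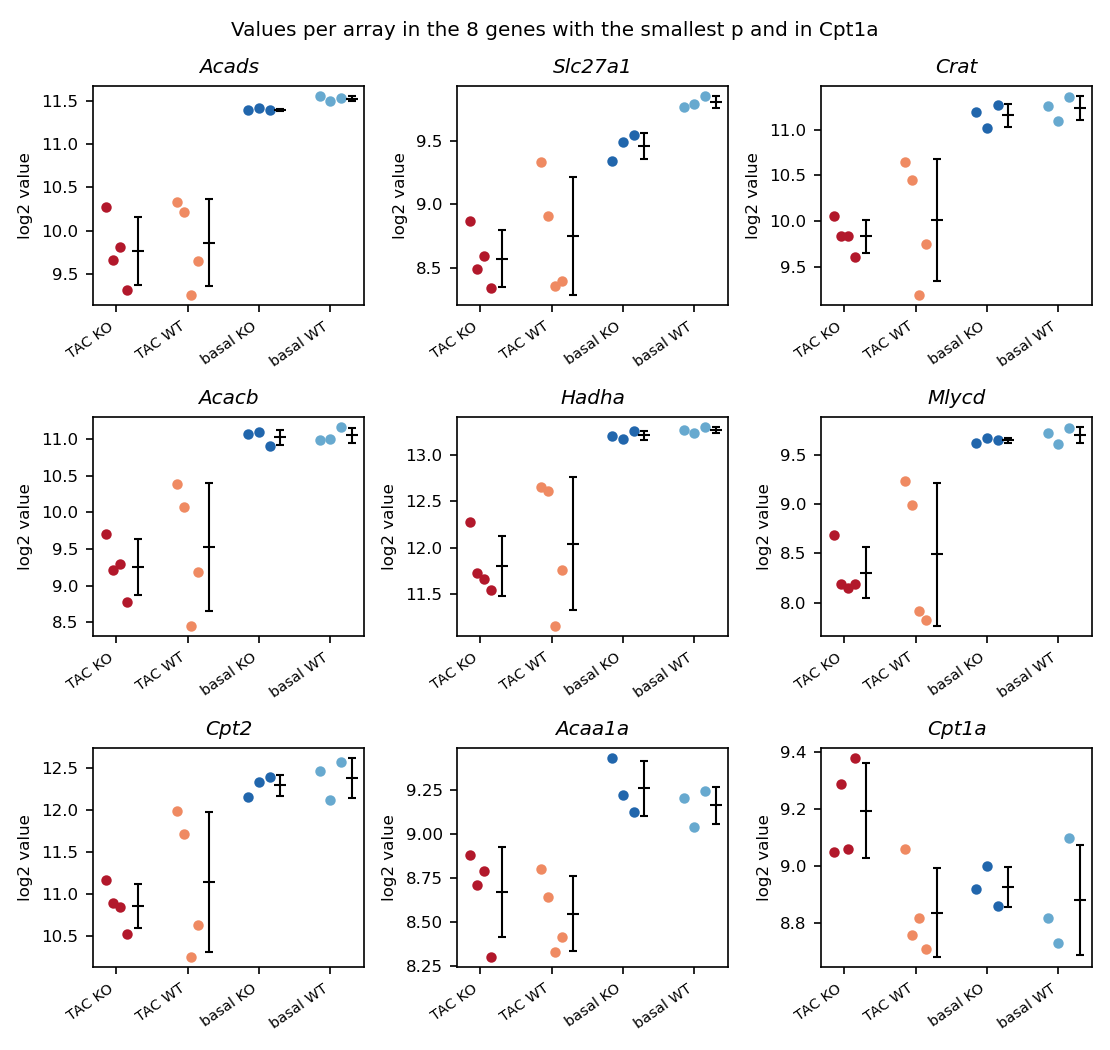
Log2 values on every array for the 8 fatty acid genes with the smallest p and for Cpt1a, in TAC KO, TAC WT, basal KO and basal WT hearts; bars beside the points are the mean and SD. In the first 8 panels all TAC points lie below the basal points of their genotype, and TAC WT points spread more widely than TAC KO points in all of these but Acaa1a.

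The acyl-CoA dehydrogenases start each turn of the spiral and differ in the chain length they accept. Acads, for short chains, read 10.27, 9.66, 9.81 and 9.32 in TAC KO hearts, against 11.39, 11.41 and 11.39 in basal KO hearts. In TAC WT hearts Acads read 10.33, 10.21, 9.26 and 9.65, against 11.55, 11.49 and 11.53 in basal WT hearts. Every TAC array was more than 1 log2 unit below every basal array of its genotype, and the difference was -1.63 ± 0.24 in KO (adjusted p = 0.000443) and -1.66 ± 0.24 in WT hearts (adjusted p = 0.000253). Acadvl, for very long chains, was lower by 0.67 (log2) in KO and by 0.66 in WT hearts (adjusted p = 0.0378 and 0.0350), a call lost in KO hearts without any 1 of 6 arrays (all but TAC KO 1; adjusted p up to 0.0926) and in WT hearts without any basal WT array, TAC WT 3 or TAC WT 4 (adjusted p up to 0.0905). Acadm, for medium chains, gave -0.61 in both genotypes and did not pass (adjusted p = 0.0841 in KO and 0.0793 in WT hearts). It passed in KO hearts without TAC KO 1 or TAC WT 3 and in WT hearts without TAC WT 1 or TAC WT 2. Acadl, for long chains, gave -0.10 (95% interval -0.45 to 0.25) in KO and -0.18 (-0.53 to 0.17) in WT hearts.

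In the later steps, from hydratase to thiolase, 6 of 6 genes passed as lower in each genotype on their brightest probe sets. Over all genes 21.8% were lower in KO and 23.8% in WT hearts. Hadha, the alpha subunit of the mitochondrial trifunctional protein, which hydrates and oxidises long chains, read 12.28, 11.73, 11.66 and 11.55 in TAC KO hearts, against 13.20, 13.17 and 13.26 in basal KO hearts. Its TAC WT values were 12.65, 12.61, 11.16 and 11.76, against 13.27, 13.24 and 13.30 in basal WT hearts. Basal arrays of Hadha lay between 13.17 and 13.30 and all TAC arrays were below them, with a difference of -1.41 ± 0.29 in KO (adjusted p = 0.00267) and -1.23 ± 0.29 in WT hearts (adjusted p = 0.00453). Hadhb, the thiolase subunit of the same complex, was lower by 0.67 in KO and by 0.53 in WT hearts (adjusted p = 0.0163 and 0.0382) on its brightest probe set, but its probe set 1437172_x_at was higher in WT hearts (log2 0.50, adjusted p = 0.0220), and the mean of its probe sets did not pass in either genotype (adjusted p = 0.0502 in KO and 0.718 in WT hearts). The peroxisomal thiolase Acaa1a read 8.88, 8.71, 8.79 and 8.30 in TAC KO hearts, against 9.43, 9.22 and 9.12 in basal KO hearts. In TAC WT hearts it read 8.80, 8.64, 8.33 and 8.41, against 9.20, 9.04 and 9.24 in basal WT hearts. The smaller spread of Acaa1a in TAC WT hearts (SD 0.21, n = 4) gave it a low p with a modest difference of -0.59 ± 0.15 in KO (adjusted p = 0.00810) and -0.62 ± 0.15 in WT hearts (adjusted p = 0.00515). Acaa2, the general mitochondrial thiolase, was lower by 0.82 in KO and by 1.03 in WT hearts (adjusted p = 0.0226 and 0.00625) on its brightest probe set. In KO hearts its other probe sets, 1428145_at and 1455061_a_at, gave -0.57 and -0.685 and did not pass (adjusted p = 0.0785 and 0.0532). Hadh, the dehydrogenase for medium and short chains, was lower by 0.90 in KO and by 0.73 in WT hearts (adjusted p = 0.0168 and 0.0368), and the short-chain hydratase Echs1 by 0.72 in KO and by 0.77 in WT hearts (adjusted p = 0.0250 and 0.0166). Of these, Acaa2 lost its KO call without basal KO 1, basal KO 3 or TAC KO 3 (adjusted p up to 0.0661). Hadh and Hadhb lost their WT calls without any basal WT array, TAC WT 3 or TAC WT 4 (adjusted p up to 0.0925). Echs1 lost its WT call without basal WT 1 (adjusted p = 0.0506) and its KO call without basal KO 1 or 3 or TAC KO 2 or 4 (adjusted p up to 0.0839).

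The auxiliary enzymes, which remodel the double bonds of unsaturated chains, were mixed. Eci1, a mitochondrial enoyl-CoA isomerase, was 2.67-fold lower in KO and 2.28-fold lower in WT hearts (adjusted p = 0.0106 and 0.0208), a WT call lost without basal WT 1, basal WT 3 or TAC WT 4 (adjusted p up to 0.0609). Ech1, a dienoyl-CoA isomerase, passed in WT hearts (log2 -0.79, adjusted p = 0.0337; lost without any basal WT array or TAC WT 4, adjusted p up to 0.0914), and its KO value of -0.63 did not (adjusted p = 0.0882). The isomerase Eci2 gave -0.32 in KO and -0.39 in WT hearts, without passing. Decr1, the mitochondrial dienoyl-CoA reductase, gave -0.60 in KO and -0.52 in WT hearts on its brightest probe set (adjusted p = 0.0667 and 0.0979), and its dimmer probe set 1449443_at passed in both (-1.40 in KO, adjusted p = 0.0100, and -1.03 in WT hearts, adjusted p = 0.0358).

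The electron transfer flavoprotein passes electrons from the dehydrogenases to the respiratory chain. Its beta subunit Etfb was lower by 0.56 (log2) in KO and by 0.59 in WT hearts (adjusted p = 0.0464 and 0.0316), and its alpha subunit Etfa gave -0.22 in KO and -0.25 in WT hearts without passing. Etfdh, the oxidoreductase that receives these electrons in the inner membrane, was lower by 0.70 in KO hearts (adjusted p = 0.0374) and gave -0.52 in WT hearts (adjusted p = 0.0976). The KO call of Etfb was lost in 10 of the 14 fits that left out 1 array (adjusted p up to 0.113) and that of Etfdh in 6 (adjusted p up to 0.0949), and the WT call of Etfb in 4 (without basal WT 1, basal WT 3, TAC WT 3 or TAC WT 4, adjusted p up to 0.104). Ucp3, an inner-membrane carrier of the uncoupling protein family that follows fatty acid supply, had some of the largest differences and the widest spread: it was 2.64-fold lower in KO hearts (adjusted p = 0.0212) and 3.10-fold lower in WT hearts (adjusted p = 0.00853). On this probe set, its brightest, TAC WT values ran from 6.09 to 8.25 and overlapped the basal WT range of 8.12 to 9.02. Its TAC KO values of 6.03 to 6.86 stayed below the basal KO range of 7.4 to 8.32. On the other probe set, 1420658_at, TAC arrays lay below basal arrays in both genotypes (5.67 to 7.87 against 8.29 to 9.19 in WT hearts). There the KO difference of -1.07 did not pass (limma adjusted p = 0.0526). The KO call of Ucp3 was lost without basal KO 2, basal KO 3 or TAC KO 4 (adjusted p up to 0.0833).

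Where a gene had several probe sets they did not always give the same call. The 31 genes had 49 probe sets above the filter, of which 25 were lower and 0 higher in KO hearts and 27 were lower and 2 higher in WT hearts (fitted over all probe sets, adjusted p). The 2 higher were those of Hadhb and Cpt1a named above. Shares over all probe sets were not computed for that fit. By gene, 21.8% of all were lower and 22.7% higher in KO hearts, and 23.8% lower and 26.9% higher in WT hearts. Of 14 genes with several, the direction was shared by all probe sets in 12 in KO and in 11 in WT hearts, and the call in 6 in KO and in 8 in WT hearts. Probe sets of the _x_at class can bind related transcripts. Which probe set reports the gene better was not tested.

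The fall was uneven between arrays, more so in WT hearts. In TAC KO hearts 26, 29, 28 and 28 of the 31 genes lay below all 3 basal KO arrays, with median differences from the basal mean of -0.38, -0.81, -0.67 and -0.95 on arrays 1 to 4. In TAC WT hearts 17, 22, 30 and 30 lay below all 3 basal WT arrays, with medians of -0.15, -0.28, -1.39 and -0.86. All 4 arrays of each genotype were therefore below 0 in the median, but TAC WT 3 held the lowest TAC WT value in 28 of 31 genes and TAC WT 1 the highest in 30. The SD between arrays had a median over the genes of 0.26 in TAC KO, 0.59 in TAC WT, 0.070 in basal KO and 0.10 in basal WT hearts, and 28 of the 31 genes had their largest SD in TAC WT hearts. Shares over all genes were not computed for these counts by array or for the SD. Whether the unevenness is particular to fatty acid genes was therefore not tested. Without TAC WT 3 the WT median became -0.41 and 14 genes passed. Ranges of TAC and basal arrays did not overlap for 26 lower genes and 1 higher gene of 31 in KO hearts, where 26.7% and 27.7% of all genes did so, and for 17 lower genes in WT hearts, where 24.3% did so.

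**Figure D3:**
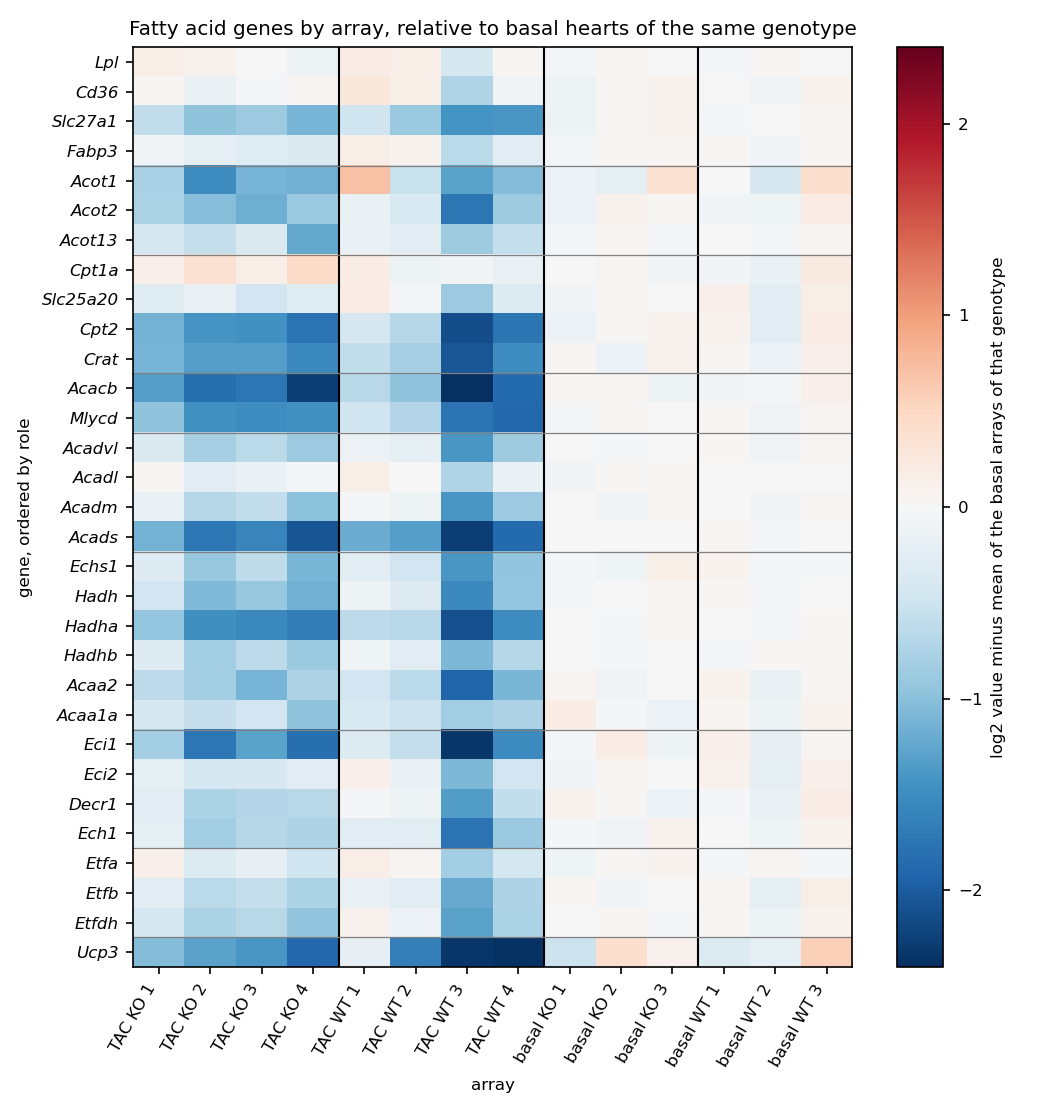
Each cell is the log2 value of a fatty acid gene (rows, ordered by role) on an array (columns, TAC KO, TAC WT, basal KO, basal WT) minus the mean of the basal arrays of that genotype. Blue rows run through all TAC columns for genes such as Acads, Acacb and Hadha, TAC WT 3 is the darkest TAC WT column and TAC WT 1 the palest.

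Markers of other cells differed between the same arrays. In bulk tissue, fewer cells of a type and less RNA per cell cannot be told apart. Over all genes, 21.8% were lower and 22.7% higher in KO hearts. The shares in WT hearts were 23.8% lower and 26.9% higher. Of 12 cardiomyocyte markers, 1 was lower (Mybpc3) and 0 higher in KO hearts, and 0 lower and 1 higher (Actc1) in WT hearts, and their mean log2 value lay between 13.98 and 14.15 in TAC KO, 13.87 and 14.25 in TAC WT, 14.11 and 14.14 in basal KO and 14.10 and 14.15 in basal WT hearts. Their summed signal ran from 210242 to 233622 in TAC KO, against 227252 to 231591 in basal KO hearts, and from 196546 to 246128 in TAC WT, against 225452 to 232846 in basal WT hearts. Of 10 macrophage markers, 8 were higher in each genotype, among them Cd68 (log2 2.22 in KO, adjusted p = 0.000653, and 2.37 in WT hearts, adjusted p = 0.000299), with summed signals of 14427.7 to 19424.6 in TAC KO, against 6584 to 7572 in basal KO hearts, and 7619 to 28437.6 in TAC WT, against 4456 to 5947 in basal WT hearts. Of 9 fibroblast markers, 6 were higher in each genotype, among them Postn (2.83 in KO, adjusted p = 0.000117, and 2.91 in WT hearts, adjusted p = 7.52e-05), with 1 lower in KO and 2 lower in WT hearts, and their sums ran from 43468.8 to 53245.2 in TAC KO, 24371.2 to 47548.2 in TAC WT, 21858 to 24990.7 in basal KO and 15970.6 to 20354.8 in basal WT hearts. Of 9 endothelial markers, 3 were lower in KO and 4 in WT hearts, among them Tie1 (-1.52 in KO, adjusted p = 7.41e-05, and -1.02 in WT hearts, adjusted p = 0.000244), and their sums ran from 5410 to 6567 in TAC KO, 5757 to 7249 in TAC WT, 7786 to 7959 in basal KO and 7734 to 8121 in basal WT hearts. Every marker of these 4 lists was above the filter in each group's mean except the macrophage gene Fcgr1, which was below it in both basal groups. Of 5 atrial markers 2 were lower in KO and 3 in WT hearts, of 3 adipocyte markers tested 0 and 2, with Adipoq, Lep and Cidec below the filter in both WT groups and Lep and Cidec in both KO groups, and of 3 skeletal muscle markers tested 0 and 1, with 1 higher in WT hearts. The array with the lowest fatty acid values, TAC WT 3, had the highest macrophage mean of all arrays (10.73) and the lowest cardiomyocyte mean (13.87). The part of these cell markers in the fatty acid differences was not tested.

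**Figure D4:**
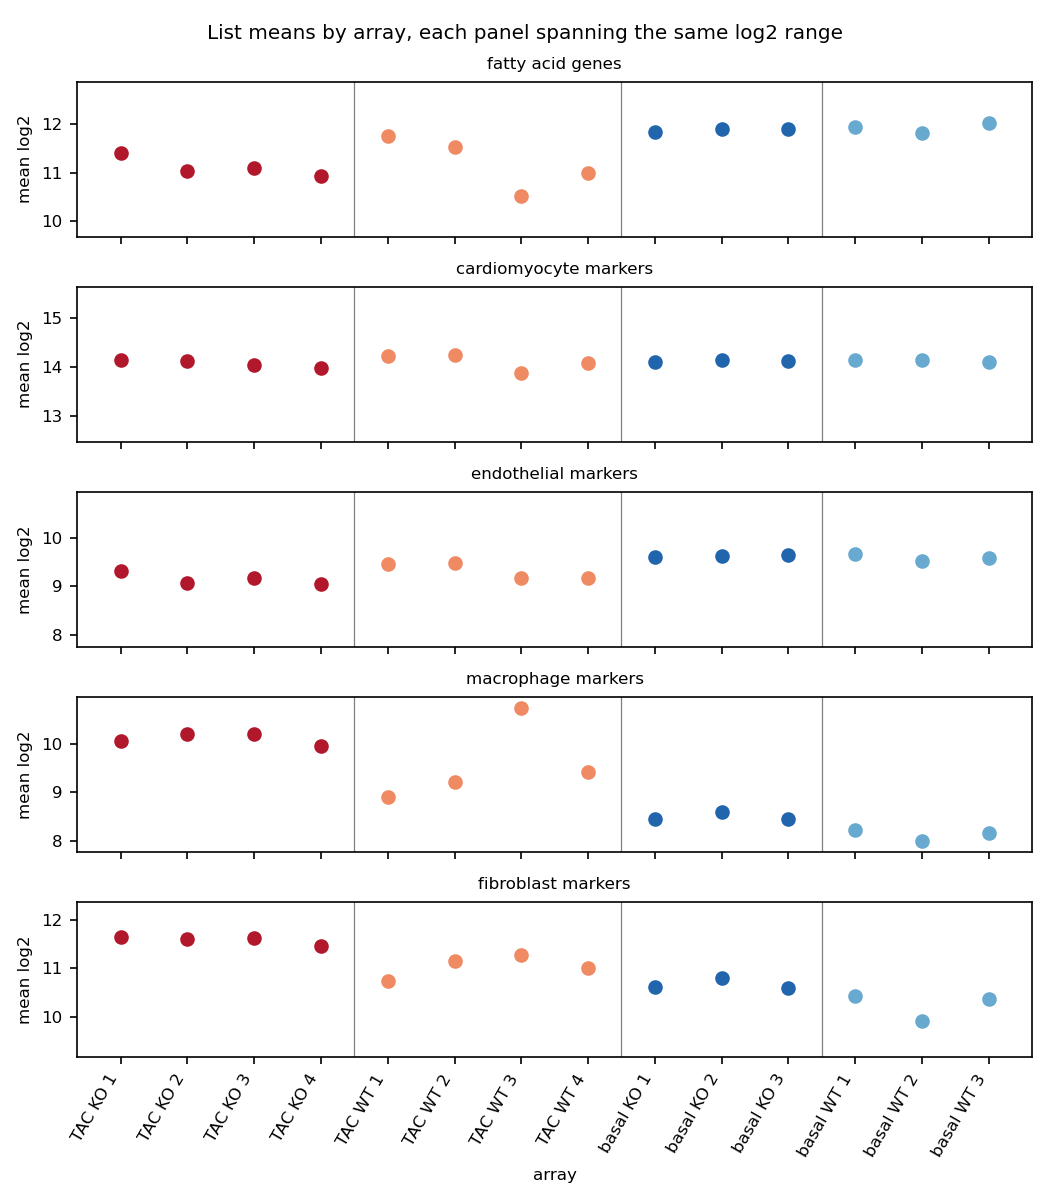
Mean log2 value per array of the 31 fatty acid genes and of 4 lists of cell markers, with arrays ordered TAC KO, TAC WT, basal KO, basal WT; each panel spans the same log2 range. TAC WT 3 has the lowest fatty acid mean and the highest macrophage mean, and cardiomyocyte means stay within 13.87 to 14.25.

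Whether Hsp22 deletion changed these genes was asked within each state. No fatty acid gene passed between genotypes: 0 of 31 after TAC, in basal hearts, and in the difference of the KO effects between the states (limma, adjusted p under 0.05). Over all genes, after TAC 0% were lower and 0.00816% higher in KO hearts, and in basal hearts and in the difference 0% passed either way. These shares leave out the deleted gene: Hspb8 was represented by its brightest probe set on average, 1456434_x_at, which did not pass, and 1 gene was lower in each state when probe sets were averaged or those of the _x_at and _s_at classes left out. At an unadjusted p under 0.05, 1 of 31 fatty acid genes passed after TAC, 0 in basal hearts and 0 in the difference, where 8.14%, 5.77% and 7.77% of all genes did. After TAC the 31 differences had a median of -0.085, ran from -0.39 for Acot1 to 0.36 for Cpt1a, and were below 0 for 22 genes. That direction turned on single arrays: the median was 0.074 with 4 genes below 0 without TAC WT 1, 0.018 with 13 without TAC WT 2, 0.00083 with 15 without TAC KO 4, and -0.28 with 29 without TAC WT 3. Without TAC KO 1 it was -0.20, without TAC KO 2 -0.036 and without TAC WT 4 -0.13. In basal hearts they had a median of -0.023 and ran from -0.54 for Ucp3 to 0.20 for Acot1. The fits left room for moderate differences in either direction: the 95% interval of KO minus WT after TAC was -0.58 to 0.38 for Acads, -0.83 to 0.35 for Hadha, -0.96 to 0.38 for Cpt2 and -0.31 to 0.42 for Cd36. Without basal KO 3, none of the 31 passed in basal hearts either. After TAC the ranges of KO and WT arrays overlapped for all 31 genes, where 2.3% of all genes lay apart with KO lower and 1.69% with KO higher.

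Cpt1a was the gene with an unadjusted p under 0.05 after TAC and is given here after its values were seen. It read 9.05, 9.29, 9.06 and 9.38 in TAC KO hearts, against 9.06, 8.76, 8.82 and 8.71 in TAC WT hearts. The lowest KO array fell just under the highest WT array, TAC WT 1, and the other WT arrays were lower, for a difference of 0.36 ± 0.12 (adjusted p = 0.442). Its dimmer probe set 1434866_x_at gave -0.0075 (adjusted p = 0.991) in the same comparison, and the mean of its probe sets 0.18 (adjusted p = 0.702). In basal hearts it read 8.92, 9.0 and 8.86 in KO hearts, against 8.82, 8.73 and 9.10 in WT hearts, a difference of 0.043 (adjusted p = 0.999). On the brightest probe sets, Slc27a1 and Acads were the genes whose basal KO arrays all lay below the basal WT arrays (log2 -0.34 and -0.13, adjusted p = 0.969 and 0.999). Of all genes, 6.13% showed such a gap with KO lower and 7.46% with KO higher. The probe sets 1420658_at of Ucp3 (log2 -1.02) and 1455061_a_at of Acaa2 (log2 -0.24) showed it too, and neither passed.

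**Figure D5:**
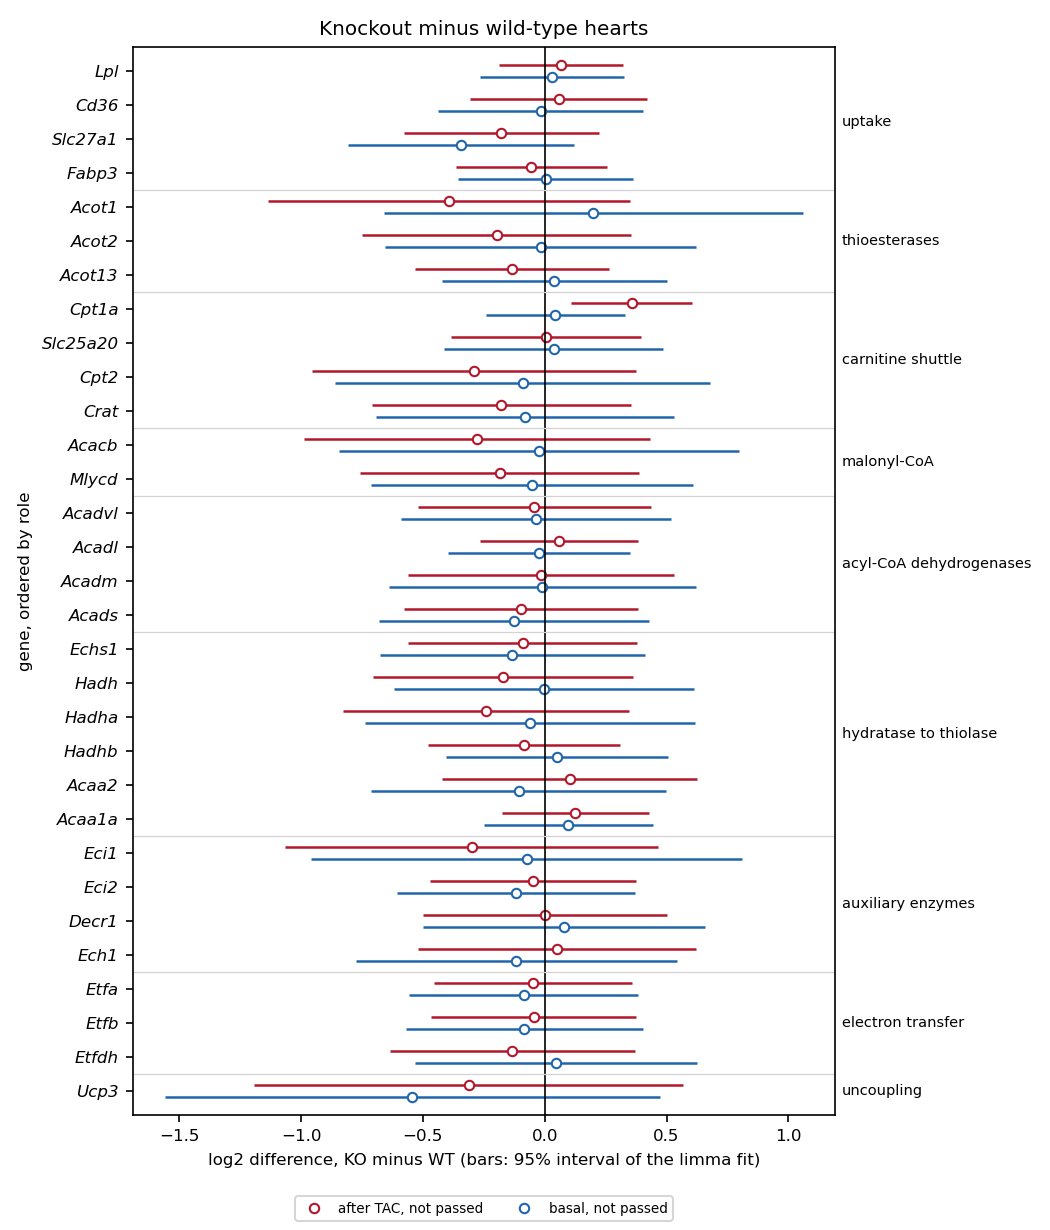
Log2 difference between KO and WT hearts for the 31 fatty acid genes, after TAC (red) above basal (blue), with 95% intervals of the limma fit. No gene passed in either state; the interval of Cpt1a after TAC, 0.11 to 0.61, is the one that lies clear of 0.

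The comparison after TAC depended on how the arrays were weighted. With weights estimated from the data, TAC WT 3, TAC KO 4 and TAC WT 4 counted least (0.187, 0.419 and 0.459), among them the array with the lowest median of fatty acid genes in each genotype, and TAC KO 3 and TAC WT 2 counted most (4.73 and 3.52). Under that weighting 10 fatty acid genes passed as lower in TAC KO than in TAC WT hearts (Fabp3, Acot2, Cpt2, Crat, Acacb, Mlycd, Hadh, Hadha, Eci1 and Etfdh) and Cpt1a passed as higher. Of all 12260 genes, 1624 (13.2%) passed as lower and 1256 as higher. Hadha then gave -0.73 ± 0.16 (adjusted p = 0.00916), beside -0.24 ± 0.27 with equal weights (adjusted p = 0.869). These weights were estimated from the spread of the same arrays, and 1 array of each TAC group carried most of the weight. With any 1 array left out at equal weights, none of the 31 passed.

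Other genes of fatty acid handling were mixed, with lipid storage the list that held no higher gene. Their counts stand beside shares over all genes of 21.8% lower and 22.7% higher in KO hearts and 23.8% lower and 26.9% higher in WT hearts. In the uptake and peroxisomal lists the counts of lower genes were near these shares. Of 14 further genes of uptake and activation, 4 were lower and 2 higher in KO hearts, and 4 lower and 3 higher in WT hearts: the long-chain synthetase Acsl4 was 5.90-fold higher in KO and 5.43-fold higher in WT hearts (adjusted p = 0.000156 and 0.000121), and the carnitine importer Slc22a5 was lower by 0.81 (log2) in KO and by 0.61 in WT hearts (adjusted p = 0.00995 and 0.0311). Of 18 further mitochondrial genes of acyl-CoA oxidation, 9 were lower and 1 higher in KO hearts and 5 lower and 1 higher in WT hearts, with Acad12 at -1.45 in KO and -1.25 in WT hearts (adjusted p = 0.00186 and 0.00326) and the thioesterase Acot9 at 1.54 in KO and 1.27 in WT hearts (adjusted p = 0.000754 and 0.00157). Among 13 peroxisomal genes, 3 were lower and 1 higher in KO hearts and 2 lower and 2 higher in WT hearts; Crot, which makes carnitine esters of chains shortened in the peroxisome, was higher (0.55 in KO, adjusted p = 0.00171, and 0.76 in WT hearts, adjusted p = 0.000211). Of 19 genes of lipid storage and lipolysis, 11 were lower in KO and 10 in WT hearts and none higher, among them the triglyceride lipase Pnpla2 (-1.15 in KO, adjusted p = 0.00410, and -1.30 in WT hearts, adjusted p = 0.00168) and its coactivator Abhd5 (-0.61 in KO, adjusted p = 0.000779, and -0.39 in WT hearts, adjusted p = 0.00677). Of 10 genes of fatty acid synthesis, 2 were lower and 2 higher in KO hearts and 1 lower and 2 higher in WT hearts; the desaturase Scd2 was 2.87-fold higher in KO and 3.99-fold higher in WT hearts (adjusted p = 0.00747 and 0.00135).

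Several regulators of fatty acid oxidation were lower. Of 18 nuclear receptors and cofactors, 11 were lower and 0 higher in KO hearts and 7 lower and 1 higher in WT hearts. Over all genes, 21.8% were lower and 22.7% higher in KO hearts. The shares in WT hearts were 23.8% lower and 26.9% higher. Ppard, a fatty acid sensing receptor of muscle, was 2.24-fold lower in KO and 1.73-fold lower in WT hearts (adjusted p = 5.47e-05 and 0.000179). Ppargc1a, the coactivator PGC-1alpha, was 3.22-fold lower in KO and 4.72-fold lower in WT hearts (adjusted p = 0.00806 and 0.00137). Ppara itself, named here after its values were seen, gave -1.40 in KO hearts (adjusted p = 0.0178) and -0.94 in WT hearts (adjusted p = 0.0788). Of 9 other genes known to respond to PPAR or to fatty acids, 4 were lower in KO and 5 in WT hearts and 0 higher in either, with Slc25a42, a mitochondrial coenzyme A carrier, at -1.45 in KO and -1.34 in WT hearts (adjusted p = 0.00137 and 0.00163).

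Of 21 genes of the tricarboxylic acid cycle, 9 were lower in KO and 7 in WT hearts, and of 25 genes of the respiratory chain 10 were lower in KO and 8 in WT hearts, with none higher in any of these. Over all genes 21.8% were lower in KO and 23.8% in WT hearts, so the shares of these lists stood nearer to that of all genes than 20 and 18 of 31 did. Other lists lay closer to the fatty acid genes. Lipid storage had 11 of 19 lower in KO and 10 of 19 in WT hearts, with medians of -0.71 and -0.43. The nuclear receptors and cofactors had 11 of 18 lower in KO and 7 of 18 in WT hearts. Examples from the cycle and the chain were Ogdh (-0.81 in KO, adjusted p = 0.0152, and -0.75 in WT hearts, adjusted p = 0.0181) and Uqcrc1 of complex III (-0.91 in KO, adjusted p = 0.00285, and -0.97 in WT hearts, adjusted p = 0.00156). Medians were -0.40 in KO and -0.32 in WT hearts for the cycle, and -0.31 in KO and -0.30 in WT hearts for the chain. Of 18 genes of glucose use, 9 were lower and 4 higher in KO hearts and 8 lower and 3 higher in WT hearts. Over all genes 22.7% were higher in KO and 26.9% in WT hearts. The basal glucose transporter Slc2a1 was 3.88-fold higher in KO and 3.81-fold higher in WT hearts (adjusted p = 0.000860 and 0.000665), and Pdk2, a kinase that restrains glucose oxidation, was 3.42-fold lower in KO and 3.04-fold lower in WT hearts (adjusted p = 0.00152 and 0.00201). No gene of the lists on fatty acid handling, regulation, the cycle, the chain or glucose use passed between genotypes.

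Promoters were read from RefSeq on GRCm38.p6, as the 250 bases before and 50 after a listed start, for 26 of the 31 genes (28 promoters). A listed start need not be the outer end of the gene. Those used for Cd36, which spans chr5:17781690-17888959, and for Acacb lay inside the gene. So did the Cpt1a promoter at chr19:3323051-3323350. PPAR-alpha binds with its RXR partner to a direct repeat of AGGTCA spaced by 1 base. The full repeat (AGGTCA, any base, AGGTCA, on either strand) was in 0 of 28 promoters and in 0.0396% of all 32851. With at most 2 mismatches it was in 5 of 28 (17.9%), those of Cd36, Ucp3, Echs1, Etfa and Slc25a20, and in 3.86% of all. Of the genes with a promoter, 2 of 18 that were lower in at least 1 genotype carried such a match, and 3 of 8 that were lower in neither. A single AGGTCA, which overlaps the repeat in Ucp3 and Echs1, was in 7 of the 28 and in 16.3% of all. The site TCAAGGTCA of the estrogen-related receptors, with at most 1 mismatch, was in 3.57% of the 28 (Ech1) and in 7.46% of all, and the NRF1 site (GCGCA followed by its reverse complement), with at most 1 mismatch, was in 10.7% (Etfdh, Acadm and Etfb) and in 6.33%. A match is a string of letters and not shown to be bound, and sites outside these windows were not searched. The promoters below are those of Acads at chr5:115119297-115119596 (minus strand), the gene with the smallest p, which holds no match to the repeat, of Ucp3 at chr7:100472741-100473040 (plus strand) and Echs1 at chr7:140116372-140116671 (minus strand), which were lower and hold one, and of Cd36 at chr5:17835847-17836146 (minus strand), which holds one and did not pass. Capitals mark the match to the repeat; in Cd36 it lies on the opposite strand.
Acads: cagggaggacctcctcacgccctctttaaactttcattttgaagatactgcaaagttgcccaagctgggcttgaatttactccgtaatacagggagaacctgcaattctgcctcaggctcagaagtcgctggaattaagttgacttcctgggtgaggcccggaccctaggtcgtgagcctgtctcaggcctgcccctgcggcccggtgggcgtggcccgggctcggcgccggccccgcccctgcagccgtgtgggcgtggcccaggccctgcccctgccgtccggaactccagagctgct
Ucp3: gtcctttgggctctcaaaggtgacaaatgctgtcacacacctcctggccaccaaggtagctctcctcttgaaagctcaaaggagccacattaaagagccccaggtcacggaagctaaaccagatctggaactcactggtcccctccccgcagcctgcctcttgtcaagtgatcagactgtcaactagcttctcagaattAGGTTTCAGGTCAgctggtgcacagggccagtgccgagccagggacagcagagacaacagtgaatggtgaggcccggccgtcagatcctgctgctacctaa
Echs1: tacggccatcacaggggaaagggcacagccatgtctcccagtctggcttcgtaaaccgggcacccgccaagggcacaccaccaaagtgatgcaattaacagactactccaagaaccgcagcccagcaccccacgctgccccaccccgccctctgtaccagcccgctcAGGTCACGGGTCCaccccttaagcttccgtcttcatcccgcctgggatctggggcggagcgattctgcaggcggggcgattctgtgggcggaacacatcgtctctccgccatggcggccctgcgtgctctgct
Cd36: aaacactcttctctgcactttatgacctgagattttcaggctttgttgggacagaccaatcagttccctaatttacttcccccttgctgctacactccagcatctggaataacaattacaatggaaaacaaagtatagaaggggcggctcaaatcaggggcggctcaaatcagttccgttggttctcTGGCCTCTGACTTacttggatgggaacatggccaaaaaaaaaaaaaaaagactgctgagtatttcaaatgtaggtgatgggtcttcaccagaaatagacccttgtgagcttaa
Relative to the start used, the matches began at -51 in Ucp3, -83 in Echs1 and -63 in Cd36. For Cd36 that start lay inside the gene.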

How the data were processed

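The authors deposited 1 table of log2 expression values per probe set for the 14 arrays, made with RMA per the submitters' processing notes (its version, and whether the runs were normalized jointly, not stated in the labels or headers). Groups came from the sample titles. Probe sets took gene symbols from the platform annotation, updated through RefSeq genes of GRCm38.p6: 34958 of 45101 had 1 symbol, 932 several (left unnamed) and 9211 none. Of the symbols, 34754 matched by gene number and 203 did not match. A probe set was kept above 5.75, the table's median, in at least 3 arrays. The brightest kept probe set stood for its gene, which gave 12260 genes. A linear model of the 4 groups was fitted to all 14 arrays with limma 3.58.1 in R 4.3.3 (lmFit, eBayes, 10 residual and 3.43 prior degrees of freedom), p-values were adjusted over all genes by Benjamini-Hochberg at 0.05, and the code was tested on simulated data. The number of arrays limits the precision. ± is the model's SE unless named SD. A fold is the power of 2 of the log2 difference.

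All 33 genes are reported, by role. Values on every array are given for the 8 genes with the smallest p over both TAC contrasts, and up to 3 passing genes per other list and contrast are named, by smallest p. The members and all lists were chosen with earlier results of these data known. Alternatives covered the filter, probe sets, scaling, the fit, array weights, a replicate block and each array left out. Raw intensities were not used here.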

Additional observations from a re-analysis of the deposited data

Results flagged for a closer look

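Mlycd on TAC KO 1 read 8.69, apart from the other TAC KO arrays at 8.15 to 8.19. The gap was 0.926 of the group's range, above Dixon's 95% critical value of 0.829 for 4 arrays. This was 1 of 62 gene and group combinations tested, the 31 genes in each TAC group, and chance alone sets apart about 1 in 20 of such groups.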

How the results depend on the processing

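Counts of fatty acid genes lower after TAC kept within 1.5 times of the main counts (20 in KO, 18 in WT hearts) with no filter (19 and 18), a stricter filter (19 and 18 of 30), the mean of probe sets (20 and 17), probe sets of the _x_at and _s_at classes left out (18 and 17 of 30), quantile normalization (21 and 19), median centring (19 and 12) and both eBayes trend settings (20 and 18). Fitting each TAC contrast on its own genotype's arrays gave 25 in KO and 11 in WT hearts, array weights 26 and 13. Leaving out 1 array gave 12 to 23 in KO hearts and 10 to 24 in WT hearts. No fatty acid gene passed as higher in any of these TAC contrasts. Between genotypes after TAC, array weights gave 10 lower and 1 higher, beside 0 and 0, and leaving out 1 array gave 0. Of all 12260 genes, array weights called 1624 lower and 1256 higher there. The share of higher genes among all calls was 51.0% in KO and 53.1% in WT hearts, and for WT hearts 41.1% after quantile normalization, 63.1% after median centring, 41.5% with no filter and 64.2% with the stricter one. With the replicate number as a block, 16 genes were lower in KO and 13 in WT hearts. The sample titles do not state whether the numbers pair the samples, and the correlations were mixed. Deviations of same-numbered TAC KO and TAC WT arrays correlated at 0.594 and 0.489 for arrays 1 and 4. They correlated at -0.060 and -0.072 for arrays 2 and 3, and between -0.053 and 0.095 in the other comparisons. The causes of these shifts were not tested.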

Other observations

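Across the 31 fatty acid genes the TAC difference in KO hearts and that in WT hearts had a Pearson correlation of 0.942, as a description over genes that share arrays and normalization. The size of the difference bore little relation to the basal level of a gene's probe set: the correlation of basal level with the log2 difference was 0.276 in KO and 0.250 in WT hearts. Basal arrays were tightly grouped for these genes, with an SD as low as 0.012 for Acads in basal KO hearts.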
